A study of Mus musculus with 24 samples.

Results

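The ribosomal RNA genes were followed in RNA read from the surface of intact mouse blood cells. The members were all transcripts of gene type rRNA in the surface tables of the 4 cell types other than monocytes (B, T, NK and HSPC), together with the same transcripts in the monocyte table. There were 154 such transcripts among the 102001 transcripts listed in all 5 tables. By name, 66 were n-R5s genes (5S rRNA), 1 was Rn18s-rs5 (18S rRNA, of type rRNA in the surface tables and a pseudogene in RefSeq), none was an n-R5-8s gene (5.8S rRNA), and 87 carried other names. Transcripts with equal values in every library were counted once, because reads from identical copies cannot be assigned to one copy. This left 114 distinct sets of transcripts, of which 35 were 5S, 1 was 18S and 78 were other rRNA. Of the 87 transcripts with other names, 8 shared their values with n-R5s genes and were counted as 5S.

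Ribosomal RNA is the structural and catalytic core of the ribosome. The 18S rRNA belongs to the small subunit, whereas the 5S and 5.8S rRNAs belong to the large subunit together with 28S rRNA. No member was named as 28S rRNA, so the rRNA levels and shares below do not cover it by name. RNA polymerase I transcribes a 45S precursor that is cut and trimmed into 18S, 5.8S and 28S rRNA. The 5S rRNA is made separately by RNA polymerase III from short tandemly repeated genes, and many imperfect 5S copies lie scattered through mammalian genomes. In the total RNA of a cell, rRNA is the most abundant class.

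The surface libraries came from AMOUR, in which paraformaldehyde-fixed intact cells bound to concanavalin A beads are annealed with an oligo that carries a T7 promoter and random bases, and T7 RNA polymerase amplifies the RNA it reaches in place. The study states that no present method, AMOUR included, fully removes the risk of RNA from inside the cells. In a human cell line the study reported lower rRNA TPM by AMOUR than in cell lysate. There were 15 surface libraries from C57BL/6 wild type mice, 3 for each of 5 cell types isolated with magnetic kits. Spleen was the source of NK cells, B cells and T cells (the last from a CD8 T cell kit), and bone marrow was the source of monocytes and of HSPCs (haematopoietic stem and progenitor cells, from a lineage depletion kit). The other 9 libraries were total RNA from wild type mouse peripheral blood mononuclear cells (PBMCs), 3 each of the groups ct, WT and Y, names that the labels do not explain. The labels do not say that replicates were separate animals, so p-values measure only the spread between these samples.

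Surface values were in TPM, a transcript abundance scaled for length and to a fixed total per library, and the depth behind them is unknown. Lists of 8 marker genes set 4 of the 5 cell types apart. B cell markers summed to 1262 to 1775 TPM in their own libraries and no more than 132 TPM in others except NK cells, where all 8 were above 0 and the sum was 219 to 405 TPM. In their own against other libraries, T cell markers summed to 42.0 to 118 TPM and no more than 9.16 TPM, NK markers to 211 to 535 TPM and no more than 35.5 TPM, and monocyte markers to 3130 to 3826 TPM and no more than 34.5 TPM. The 8 HSPC markers did not set HSPCs apart on this scale, at 10.9 to 17.0 TPM in HSPCs, 7.41 to 14.9 TPM in NK cells and 31.4 to 34.5 TPM in monocytes, and 7 of the 8 were above 0 in the HSPC libraries; after the rescaling described next they stood at 65.0 to 74.3 TPM in HSPCs and no more than 40.1 TPM in others. Neutrophil markers summed to 1849 to 2207 TPM in the monocyte libraries and 89.1 to 233 TPM in the HSPC libraries, with all 8 above 0, against at most 44.5 TPM in the other libraries. Platelet markers, all 8 above 0, summed to 108 to 157 TPM in the monocyte libraries, 23.5 to 42.8 TPM in the HSPC libraries and no more than 11.6 TPM in others. Erythroid markers, 6 to 8 of 8 above 0, summed to 15.5 to 67.5 TPM in NK cells, 22.7 to 45.2 TPM in HSPCs (172 TPM on average after rescaling) and 27.0 to 48.3 TPM in monocytes, against at most 15.7 TPM in others. The part of these B cell, neutrophil, platelet and erythroid signals in the results was not tested. The monocyte libraries were sequenced on another instrument than the rest and, per the study's methods, with shorter reads. For monocytes 149488 transcripts were listed, and for each of the other cell types 102168 were. Instrument, read length, the set of listed transcripts and cell type therefore cannot be told apart. A trio of miRNA transcripts with equal values (Gm55936, Gm55094 and Gm55118) held 79.0% of all TPM in HSPCs on average, and 9.72% to 31.5% in single libraries elsewhere. Because TPM sums to a fixed total, levels are also given below after rescaling without these 3 transcripts.

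The reference 5S gene Rn5s, of 119 bases, lies in a tandem array on chromosome 8 (GRCm38), where 51 annotated genes on the minus strand span 84.96 kb with a median spacing of 1697.5 bp, and 32 of the 51 have exactly the sequence of Rn5s. Annotated sequences (GENCODE M21) were matched by transcript ID to 20 of the 154 members. Of these 20, 7 carried another symbol in that annotation, so a symbol alone was used only for copies in the array that shared their values with another copy, which added 43 members, and 91 members were left without a position or sequence. Each of the 23 sets with a match held a sequence of its own, so among these 63 transcripts the copies with equal values were those with identical sequence. Array copies with values of their own and no ID match were left out by this rule, so the comparison does not cover them. Of the array sets described below, n-R5s106 and n-R5s112 each differ from Rn5s at 1 base and n-R5s101 differs at 4.

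The rRNA members held a large part of the surface TPM, in HSPCs only after rescaling. Their summed share was 55.2% ± 11.1 (SD, n = 3) of TPM in B cells and 48.7% ± 4.95 in T cells. It was 37.7% ± 2.05 in NK cells, 35.8% ± 2.33 in monocytes and 9.95% ± 2.44 in HSPCs. After rescaling without the 3 miRNA transcripts, the rRNA total was 472780 TPM in HSPCs and 418271 TPM in monocytes. The makeup of this share also differed, because 18S rRNA was 63.2% ± 4.88 of it in monocytes, 58.9% ± 2.19 in HSPCs, 38.4% ± 10.5 in NK cells, 19.96% ± 3.72 in B cells and 13.1% ± 3.69 in T cells. Nearly all of the remainder was 5S rRNA, and the other rRNA transcripts made up 0.0972% to 1.39% of the rRNA signal on average. These percentages describe the members only and are not the makeup of whole ribosomal RNA, because the longest large-subunit rRNA has no member by name. In such bulk libraries fewer cells carrying an RNA and less RNA per cell cannot be told apart.

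**Figure D1:**
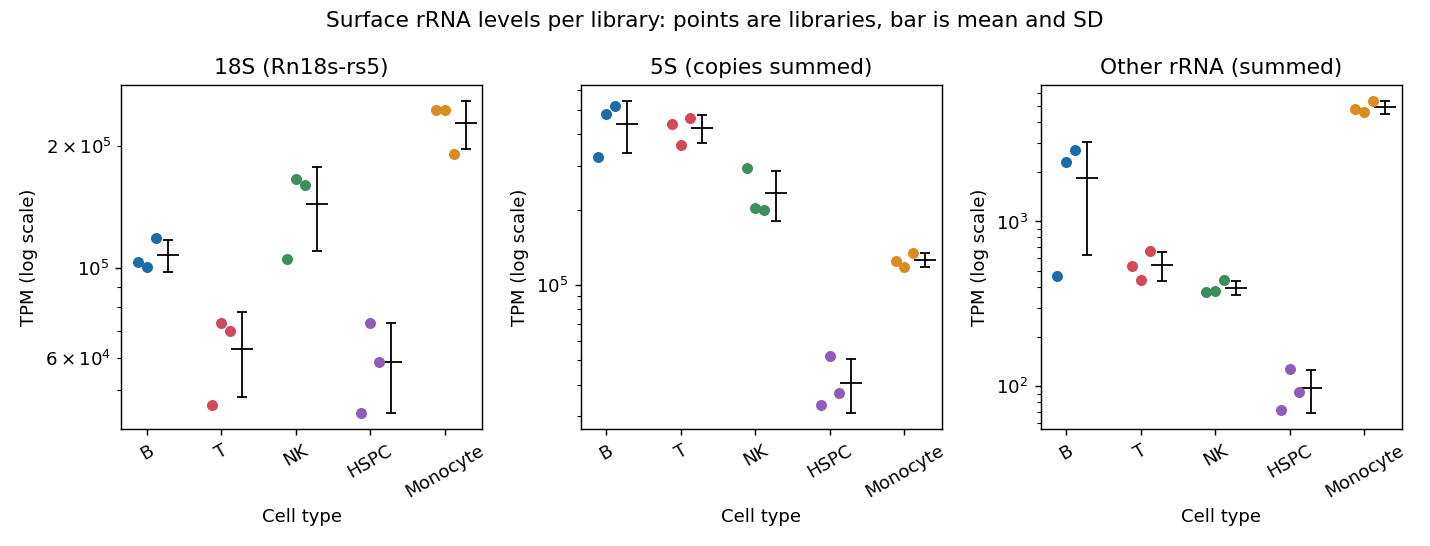
Surface level in TPM (log axes) of 18S rRNA, summed 5S rRNA and the summed other rRNA transcripts by cell type, with points for the 15 libraries and bars for mean and SD. Monocytes held the highest 18S mean (227092 TPM), B cells and T cells the highest 5S means (442381 and 423268 TPM), and HSPCs the lowest mean of each group before rescaling.

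The 18S rRNA was highest on monocytes and lowest on HSPCs. Its level was 244949, 245363 and 190963 TPM in the 3 monocyte libraries, 105056, 165590 and 159644 TPM in NK cells, and 103561, 100592 and 118763 TPM in B cells. It was 45969, 73382 and 70032 TPM in T cells and 43938, 73366 and 58758 TPM in HSPCs. The monocyte libraries lay above all others, while the T cell and HSPC libraries overlapped each other and lay below all the rest. The means were 227092 ± 31289 TPM in monocytes, 143430 ± 33366 in NK cells and 107639 ± 9748 in B cells, with T cells at 63128 ± 14954 and HSPCs at 58687 ± 14714.

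Against the mean of the other 4 cell types, the log2(TPM + 1) level of 18S rRNA rose by 1.40 ± 0.18 (SE) in monocytes (adjusted p = 3.67e-06, limma with Benjamini-Hochberg adjustment over 1032 tested transcripts). It rose by 0.55 ± 0.18 in NK cells (limma adjusted p = 0.0263), a call that was lost without NK replicate 2, without NK replicate 3 and after rescaling (limma adjusted p = 0.144, 0.116 and 0.175). It fell by 0.94 in T cells (limma adjusted p = 0.000264), a difference that turned to 0.44 under quantile normalization, and by 1.07 in HSPCs (limma adjusted p = 0.000111), a difference that turned to 0.90 after rescaling. The B cell difference of 0.06 ± 0.18 did not pass the test (limma adjusted p = 0.789). Of the 10 pairs of cell types, 8 differed in 18S rRNA, and 4 did under quantile normalization. The share of all tested transcripts called was 52.7% for B against T, 41.9% for B against NK, 52.3% for B against HSPC, 47.3% for T against NK, 56.6% for T against HSPC and 40% for NK against HSPC. Against monocytes this share was 87.4% for B, 85.9% for T, 82.8% for NK and 89.8% for HSPC. Between neighbours in the order of levels, monocytes and NK cells differed (log2 difference of NK minus monocyte -0.68, limma adjusted p = 0.0123), as did B cells and T cells (B minus T 0.80, limma adjusted p = 0.00941, which turned to -0.44 under quantile normalization). NK cells and B cells did not differ beyond their spread (B minus NK -0.39, limma adjusted p = 0.192), nor did T cells and HSPCs (T minus HSPC 0.11, limma adjusted p = 0.724).

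The place of HSPCs in this order depended on the scaling. After rescaling without the 3 dominant miRNA transcripts, 18S rRNA stood at 278419 TPM in HSPCs, 265017 TPM in monocytes, 203336 TPM in NK cells, 133757 TPM in B cells and 71600 TPM in T cells. The HSPC difference from the other 4 cell types then passed the test in the other direction (limma adjusted p = 0.00043), and the T minus HSPC difference turned from 0.11 to -1.99 on the log2 scale.

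The 5S rRNA followed another order, with the highest levels on B and T cells. Summed over all copies, it stood at 324201, 482545 and 520398 TPM in B cells, 441786, 362912 and 465107 TPM in T cells, and 294284, 204041 and 200336 TPM in NK cells. It stood at 124332, 118451 and 134864 TPM in monocytes and at 33131, 52051 and 37050 TPM in HSPCs. The lowest B cell library reached above every NK library, and every HSPC library lay below every monocyte library. The means were 442381 ± 104082 TPM in B cells and 423268 ± 53555 TPM in T cells. They were 232887 ± 53204 TPM in NK cells, 125882 ± 8316 in monocytes and 40744 ± 9986 in HSPCs. The rescaled means kept this order, at 539265 TPM in B cells, 477773 TPM in T cells and 326056 TPM in NK cells, except that HSPCs (193901 TPM) moved above monocytes (147468 TPM).

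Rn5s with its identical copies, 32 in all, supplied most of the 5S signal, at 85.5% of it in monocytes, 95.3% in T cells, 89.8% in B cells, 93.7% in NK cells and 92.5% in HSPCs. One Rn5s copy was listed at 9259, 13384 and 14511 TPM in B cells, 13176, 10785 and 13858 TPM in T cells, and 8664, 5986 and 5817 TPM in NK cells. It was listed at 3347, 3175 and 3565 TPM in monocytes and at 954, 1511 and 1071 TPM in HSPCs. B cell and T cell libraries overlapped, while the libraries of the other cell types did not overlap one another.

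Against the other 4 cell types, Rn5s rose by 1.57 ± 0.18 on the log2(TPM + 1) scale in T cells (limma adjusted p = 2.88e-06) and by 1.52 in B cells (limma adjusted p = 7.21e-06). It fell by 2.73 in HSPCs (limma adjusted p = 5.69e-08), though not under quantile normalization (0.0016), and by 0.80 in monocytes (limma adjusted p = 0.000853), and the NK difference of 0.44 did not pass the test (limma adjusted p = 0.0717). The neighbours T and B did not differ beyond their spread (B minus T -0.04, limma adjusted p = 0.916). The next neighbours did, at 0.86 for B minus NK (limma adjusted p = 0.00889), 1.00 for NK minus monocyte (limma adjusted p = 0.00111) and -1.54 for HSPC minus monocyte (limma adjusted p = 1.98e-05), and the last of these turned to 0.50 after rescaling. Of the 10 pairs, 9 differed, and 0 under quantile normalization.

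The ratio of summed 5S to 18S does not move with the scaling of a library to its total. It does depend on how equal-valued copies are counted and on the transcript lengths by which TPM is scaled. For monocytes, read length and cell type cannot be told apart in this ratio. Over all copies it was 9.61, 4.95 and 6.64 in T cells, 3.13, 4.80 and 4.38 in B cells and 2.80, 1.23 and 1.25 in NK cells. It was 0.754, 0.709 and 0.631 in HSPCs and 0.508, 0.483 and 0.706 in monocytes. All T cell libraries lay above all B cell libraries, these lay above all NK libraries, and the HSPC and monocyte libraries overlapped below the rest. Counted once, a set of equal-valued copies enters with the value of 1 copy, Rn5s for instance with 1 of its 32, so this is not the whole 5S signal. With equal-valued copies counted once, the T cell libraries (0.437, 0.232 and 0.303) overlapped the B cell libraries (0.179, 0.303 and 0.269), and the HSPC libraries (0.0356 to 0.0436) lay below the monocyte libraries (0.0448 to 0.0651). On this count the NK libraries (0.141, 0.0628 and 0.0682) overlapped the monocyte libraries. The means over all copies were 7.07 ± 2.36 in T cells, 4.10 ± 0.868 in B cells, 1.76 ± 0.899 in NK cells, 0.698 ± 0.0625 in HSPCs and 0.566 ± 0.122 in monocytes. T cell replicate 1 set much of the T cell spread, and NK replicate 1 stood above the other two NK libraries.

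**Figure D2:**
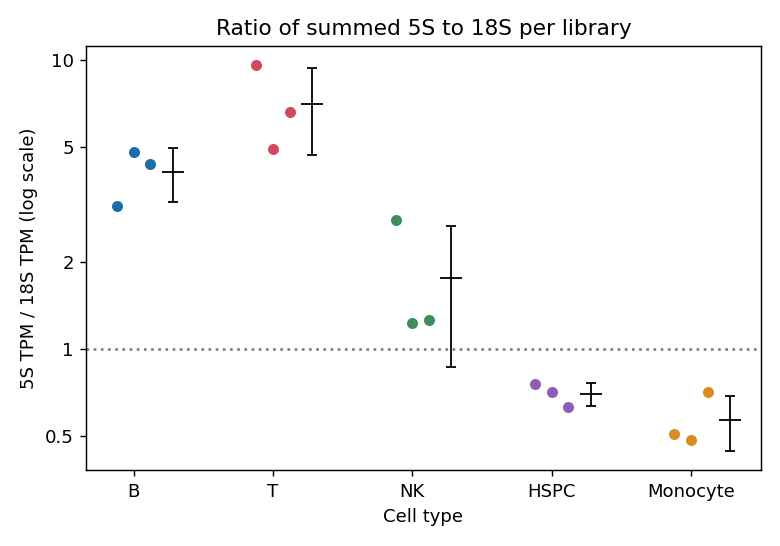
Ratio of 5S (all copies summed) to 18S in TPM (log axis) by cell type, with points for libraries, bars for mean and SD, and a dotted line at equal levels. T cell libraries lie between 4.95 and 9.61, B cell libraries between 3.13 and 4.80, and the HSPC and monocyte libraries at or below 0.754. With equal-valued copies counted once, which leaves out most of the Rn5s signal, T and B cells overlap, as do NK cells and monocytes.

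The more abundant 5S sets with values of their own did not keep a fixed proportion to Rn5s, and n-R5s106, n-R5s136, n-R5s102, n-R5s112 and n-R5s101 all stood closer to Rn5s in monocytes than in T cells. One copy of n-R5s106, a set of 4 equal genes that differ from Rn5s at 1 base, stood at 89.8% ± 9.02 of one Rn5s copy in monocytes and 79.3% ± 12.6 in B cells. It stood at 51.9% ± 3.29 in HSPCs, 44.3% ± 4.97 in NK cells and 33.3% ± 1.05 in T cells. The monocyte range of 84.5% to 100.2% and the B cell range of 64.8% to 88.2% overlapped, and both lay above the T cell range of 32.3% to 34.4%. The variant n-R5s136 stood at 52.2% ± 4.29 of an Rn5s copy in monocytes against 10.1% to 16.6% on average in the other cell types. The variant n-R5s102 stood at 27.5% ± 3.18 in monocytes, 21.3% ± 1.08 in HSPCs, 9.81% ± 2.66 in NK cells, 9.35% ± 1.04 in B cells and 4.75% ± 1.10 in T cells.

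The set of n-R5s112 (3 equal genes) stood at 10.1% ± 0.983 of an Rn5s copy in monocytes, 4.68% ± 1.68 in B cells and 1.53% ± 0.162 in T cells. The set of n-R5s101 (2 equal genes) stood at 8.35% ± 1.90 in monocytes against 0.255% to 1.11% on average elsewhere. Within an array of near-identical genes the estimate divides reads by single bases. For the array sets these proportions therefore rest on the reads that cover a differing base. Reads were shorter in the monocyte libraries, so read length and cell type cannot be told apart in the monocyte proportions.

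**Figure D3:**
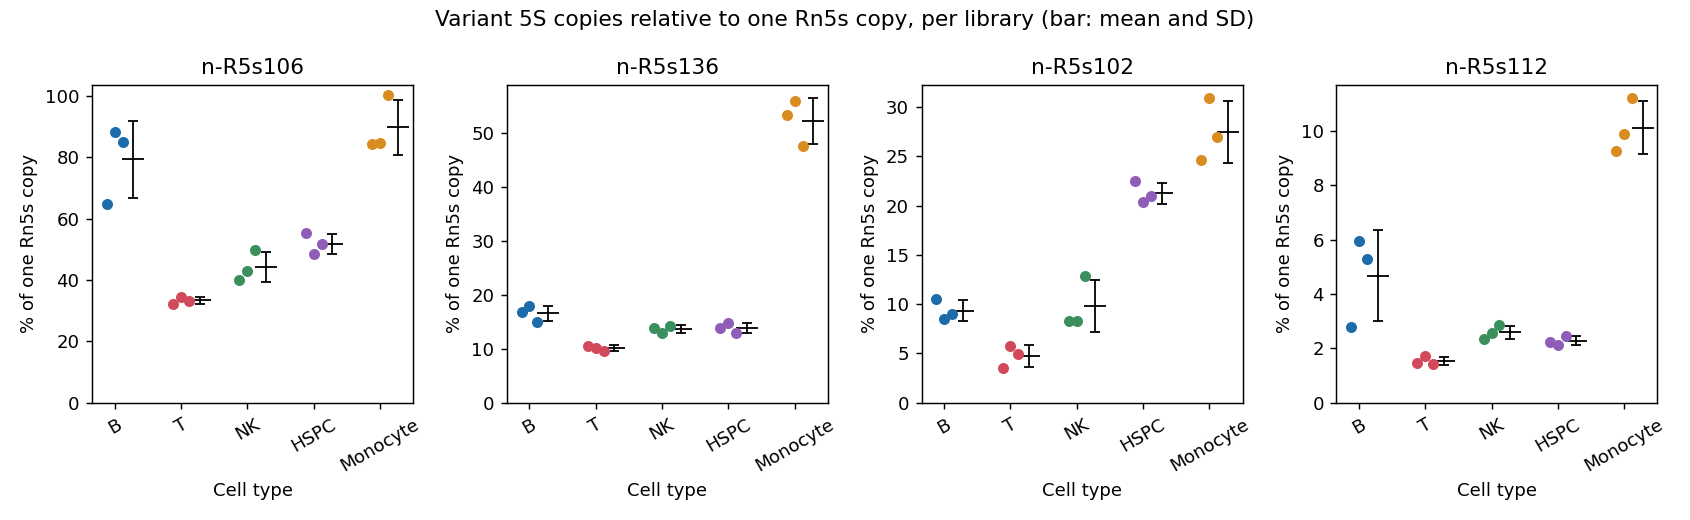
Level of one copy of n-R5s106, n-R5s136, n-R5s102 and n-R5s112 as a percentage of one copy of Rn5s in the same library, by cell type, with points for libraries and bars for mean and SD. In monocytes the means were 89.8%, 52.2%, 27.5% and 10.1%, and in T cells 33.3%, 10.1%, 4.75% and 1.53%.

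In TPM as deposited, these sets were highest on B cells or monocytes and lowest on HSPCs, though for n-R5s102 the HSPC difference from the other 4 cell types turned from -1.68 to 0.28 on the log2 scale after rescaling. One copy of n-R5s106 was listed at 6004, 11807 and 12315 TPM in B cells, against means of 4192 TPM in T cells, 3029 TPM in monocytes, 2981 TPM in NK cells and 605 TPM in HSPCs. Its B cell level was raised by 2.14 on the log2 scale (limma adjusted p = 1.04e-06), while its monocyte difference of 0.05 did not pass the test (limma adjusted p = 0.821). For n-R5s136 the B cell libraries (1555, 2388 and 2181 TPM) overlapped the monocyte libraries (1784, 1773 and 1693 TPM), and both were raised against the other 4 cell types, by 1.41 and 1.16 (limma adjusted p = 4.55e-05 and 0.000104). The variant n-R5s102 reached 973, 1139 and 1311 TPM in B cells and 823, 981 and 961 TPM in monocytes, and 214 to 308 TPM in HSPCs.

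The sets n-R5s112 and n-R5s115 had means of 608 and 215 TPM in B cells, 341 and 199.5 TPM in monocytes and 191 and 123 TPM in T cells. Both rose in B cells, by 2.03 and 1.33 (limma adjusted p = 4.04e-05 and 0.000183), and in monocytes, by 1.19 and 1.27 (limma adjusted p = 0.00163 and 0.000105). The monocyte difference of n-R5s115 turned to -0.58 under quantile normalization. The sets n-R5s101 and n-R5s109 were instead highest on monocytes, at 283 and 268 TPM against 71.5 and 59.9 TPM in B cells, and n-R5s127 reached 132 TPM there against 31.2 TPM in B cells. B cell replicate 1 was the lowest of the B cell libraries in 21 of the 29 5S and other sets with a mean above 50 TPM in some cell type.

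The 5 sets of equal-valued array copies held almost all 5S signal, at 99.4% for T cells, 99.1% for both B and NK cells, 98.8% for HSPCs and 96.4% for monocytes. They had a median highest mean of 608 TPM, whereas the 16 sets placed elsewhere by transcript ID, on 13 chromosomes, had a median of 23.2 TPM. The 14 of these 16 copies with the length of Rn5s differed from it by 4 to 17 substitutions, with a median of 10.5. Among the 5S sets with a mean above 50 TPM in some cell type, 4 were from the array, 4 from elsewhere, and 9 could not be placed.

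Of these 4 sets from elsewhere, 3 were highest on monocytes, where 79.5% of all tested transcripts rose. The highest, n-R5s28 (chr17:47848834-47848952, plus strand, 6 substitutions), was listed at 357, 291 and 273 TPM in monocytes, 80.9, 110 and 105 TPM in B cells and 3.94 to 22.7 TPM in the other libraries. It was raised in monocytes by 3.92 and in B cells by 1.88 on the log2 scale (limma adjusted p = 2.81e-09 and 2.65e-05). The copy n-R5s151 (chr7:16471813-16471931, plus strand, 5 substitutions) stood at 155, 149 and 149 TPM in monocytes against at most 15.04 TPM elsewhere. The copy n-R5s195 (chr3:88906510-88906628, plus strand, 15 substitutions, listed under another symbol in M21) had a monocyte mean of 111 TPM against 0.843 to 7.43 TPM on average elsewhere. The copy n-R5s33 (chr16:33001903-33002021, plus strand, 4 substitutions) was highest in T cells, at 79.3, 92.8 and 40.1 TPM, with a log2 difference of 1.59 there. It was above 50 TPM in T cell libraries only and entered the test through them, so no p-value is given for T cells. In monocytes its difference did not pass the test (limma adjusted p = 0.997).

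Of the 5S sets without a position, n-R5s60 was listed at 140, 149 and 82.8 TPM in monocytes and at no more than 0.879 TPM in any other library, with all NK and HSPC libraries at 0. The sets n-R5s2 and n-R5s64 also had their highest mean on monocytes, at 139 and 77.7 TPM. The copy n-R5s194 overlapped between monocytes (39.5, 51.3 and 71.6 TPM), B cells (24.5, 62.9 and 41.9 TPM) and T cells (32.3, 43.5 and 44.1 TPM), and stood at 0.800 to 4.96 TPM in HSPCs.

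The other rRNA transcripts were low in sum. Their summed level was 4937 ± 424 TPM in monocytes, 1834 ± 1204 TPM in B cells, and between 97.5 ± 28.6 TPM (HSPCs) and 546 ± 107 TPM (T cells) in the rest, with NK cells at 398 ± 38.6 TPM. The highest was Gm55098, listed at 1674, 1611 and 2207 TPM in monocytes, 69.5 to 158 TPM in B and T cells, 35.1 to 87.8 TPM in NK cells and 7.27 to 14.9 TPM in HSPCs. It rose by 5.12 in monocytes and fell by 4.14 in HSPCs on the log2 scale (limma adjusted p = 3.52e-10 and 5.69e-08). The names beginning with Gm are predicted genes, and no role is given for them.

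Gm54697 stood at 790, 840 and 840 TPM in monocytes and at most 16.5 TPM elsewhere, and Gm55748 at 405, 360 and 488 TPM against at most 13.9 TPM. Gm54747 stood at 147, 172 and 219 TPM in monocytes and at most 0.877 TPM elsewhere, with all HSPC libraries at 0. In each of these the monocyte libraries were far above every other library, with log2 differences of 6.81, 7.53 and 7.20. These 3 sets entered the test through the monocyte libraries only, so no p-value is given for them. Gm54994, Gm56176, Gm55774, Gm54702, Gm55352 and Gm55311 followed with means of 50.8 to 236 TPM in monocytes. Their means passed 50 TPM in monocytes only, so their place above the other libraries, as for 69.3% of all tested transcripts, is no result about them.

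Gm23647 and Gm55073 departed from this. Gm23647 lies in the 5S array and shares its values with the pseudogene Rn5s-ps1. It was listed at 147, 1024 and 1236 TPM in B cells, 449, 362 and 372 TPM in monocytes, 61.0 to 178 TPM in T and NK cells and 14.1 to 15.4 TPM in HSPCs, and B cell replicate 1 fell below all monocyte libraries. It rose by 2.704 in B cells and 2.03 in monocytes (limma adjusted p = 0.000241 and 0.00116). Gm55073 was listed at 67.0, 81.6 and 27.4 TPM in monocytes and at 8.09 to 60.0 TPM elsewhere, and passed the test in no cell type.

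**Figure D4:**
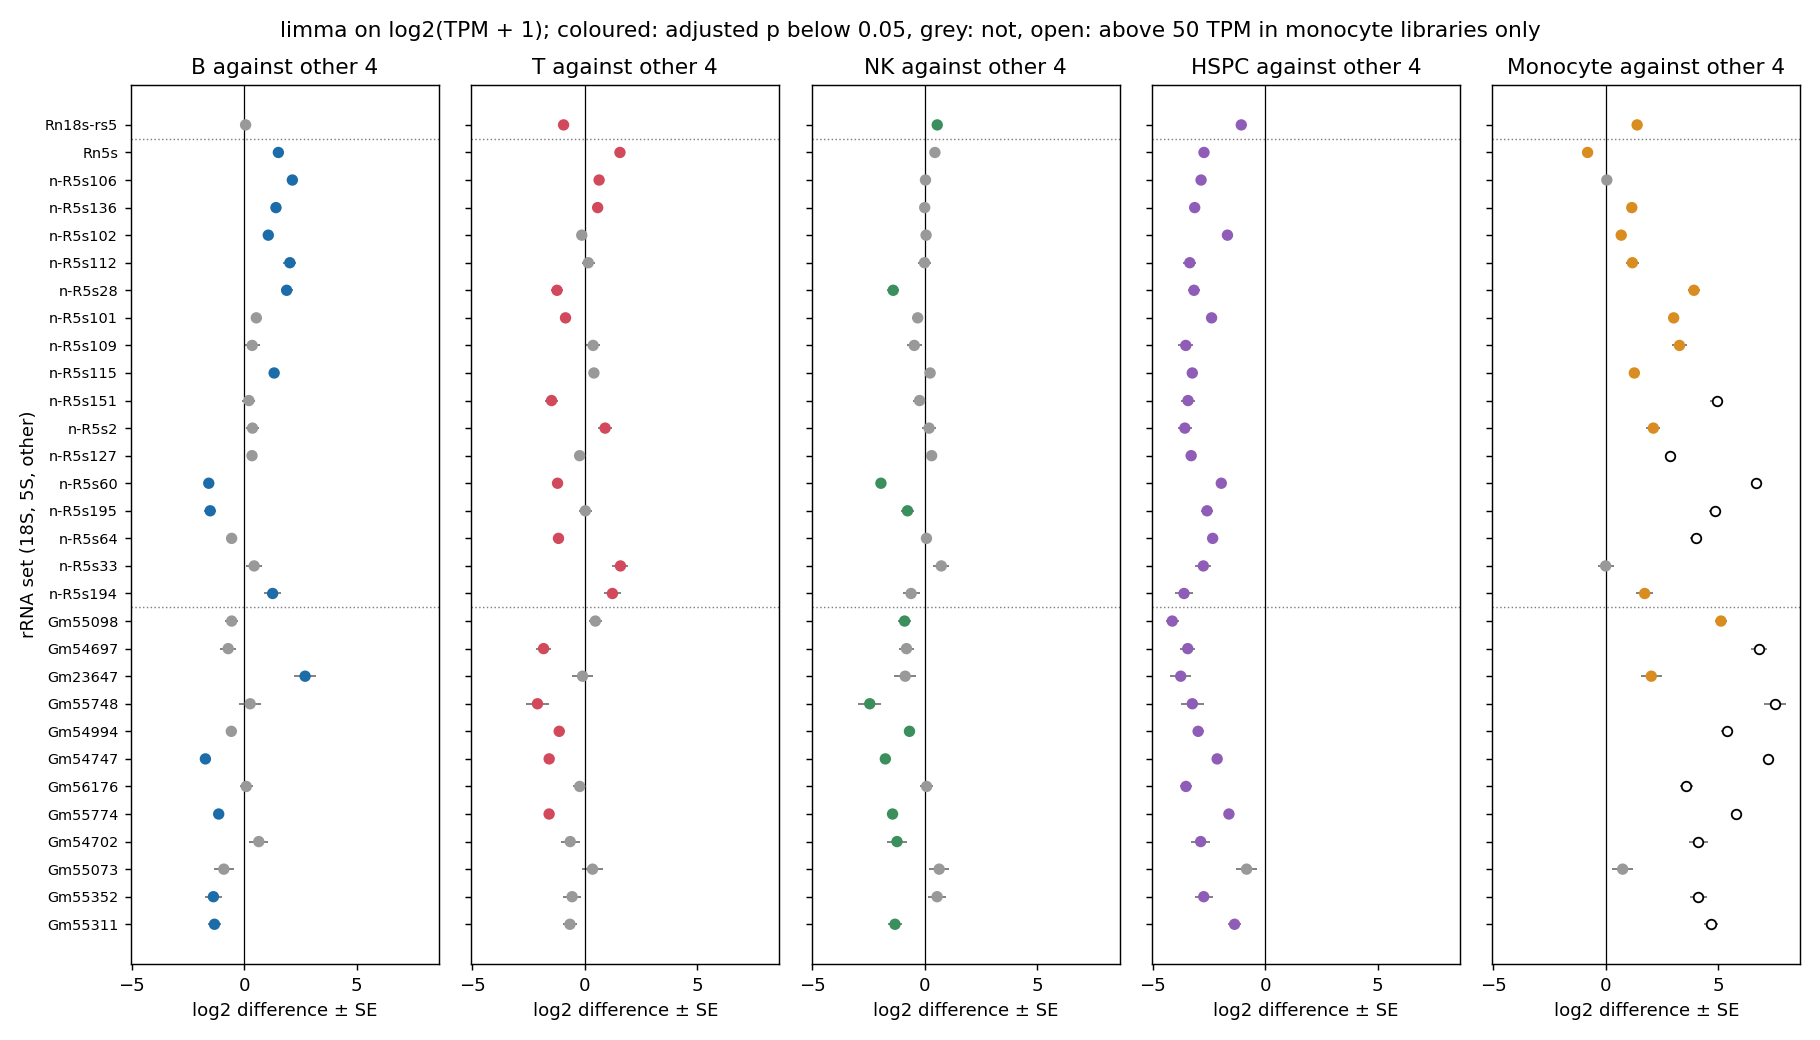
Difference of each cell type from the other 4 on the log2(TPM + 1) scale with its SE (limma) for the 30 rRNA sets with a mean above 50 TPM in some cell type, coloured where the adjusted p is below 0.05 and grey otherwise, with open points in monocytes for sets that were above 50 TPM in monocyte libraries only, whose call is not shown, and dotted lines between 18S, 5S and other sets. In monocytes 18S rRNA lies at 1.40 and Rn5s at -0.80, and in HSPCs all sets lie below 0 before rescaling. The set n-R5s33 was above 50 TPM in T cell libraries only, so its T cell call is no result about it.

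Of the 30 sets with a mean above 50 TPM in at least one cell type, 22 were highest in monocytes, 2 in T cells and 6 in B cells, and 28 were lowest in HSPCs before rescaling. Of the 30 sets, 15 passed the threshold through their monocyte mean only, so counts of sets high in monocytes were partly set by the threshold. Over these 30 sets, the 3 monocyte libraries lay above the other 12 in 20 sets (69.3% of all tested transcripts) and the 3 HSPC libraries below the other 12 in 23 sets (15.2%). A mean above 50 TPM, the level from which the study counted a transcript as found, was reached by 29 sets in monocytes, 5 in HSPCs, 10 in NK cells, 13 in B cells and 12 in T cells. The last set inside this threshold was Gm55311 at 50.8 TPM and the first outside it Gm55246 at 45.6 TPM. The 84 sets below it had a median highest mean of 1.96 TPM, and 51 of all 114 sets were at 0 in 8 or more libraries. A single library above 50 TPM admitted a transcript to the test, so 33 sets were tested, the 30 sets and Gm55246, n-R5s1 and n-R5s185, and 81 were not. These last 3 are named here because they entered the test, after their values were seen.

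Of the 33 tested sets, 16 were above 50 TPM in monocyte libraries only and so entered the test through the group where they were high. Likewise n-R5s185 entered through B cells only, at 82.0 TPM in its highest library, and n-R5s33 through T cells only. Their rises there are counted below but were partly set by the filter. The calls of the 33 sets are given with the share of all 1032 tested transcripts called in the same direction. In monocytes 28 of 33 sets rose, where 79.5% of all tested transcripts rose, and 1 fell (7.46%), and the median log2 difference was 3.28 for the rRNA sets and 3.28 for all transcripts. In HSPCs 31 of 33 fell (69.7% of all) and none rose (3%), with medians of -2.86 and -1.27. All 3 HSPC libraries lay below the other 12 in 24 of the 33 sets, against 15.2% of all tested transcripts, and all 3 monocyte libraries above in 22, against 69.3%. All 3 B cell libraries lay above the other 12 in 2 sets, against 3.1%. In B cells 10 rose (13.1% of all) and 6 fell (47.2%), with medians of 0.34 and -0.66, and in T cells 7 rose (19.6%) and 11 fell (60.6%), with medians of -0.22 and -1.30. In NK cells only 18S rRNA rose (13% of all) and 10 sets fell (25.3%), with medians of -0.32 and -0.24.

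By kind of rRNA, beside the same shares of all tested transcripts, 9 of the 19 tested 5S sets rose (13.1%) and 2 fell (47.2%) in B cells, 6 rose (19.6%) and 5 fell (60.6%) in T cells, and none rose (13%) and 3 fell (25.3%) in NK cells. In HSPCs 18 of them fell (69.7%), and in monocytes 15 rose (79.5%) and 1, Rn5s itself, fell (7.46%). Of the 13 other sets, against these shares, 1 rose and 4 fell in B cells, 1 rose and 5 fell in T cells, 7 fell in NK cells, 12 fell in HSPCs and 12 rose in monocytes. In HSPCs the 2 sets that were not called were Gm55073 and n-R5s185. Among the 5S sets counted as risen, n-R5s185 in B cells and n-R5s33 in T cells entered the test through that cell type only.

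Scaling moved some of these splits. Rescaling without the miRNA transcripts shifted the median of all transcripts in HSPCs from -1.27 to 0.42, and there 28 of 36 rRNA sets fell and 3 rose, where 21.2% and 38.1% of all transcripts did. It also turned the split in B cells to 9 higher and 13 lower (8.46% and 60% of all 1253 transcripts then tested) and in T cells to 2 higher and 14 lower (12.5% and 68.6%). Quantile normalization gave 14 higher and 5 lower in B cells (21.9% and 44.3% of all) and 22 higher and 5 lower in monocytes (56.9% and 25.1%). All 5 contrasts share the monocyte libraries. Without these, 17 sets were tested among 432 transcripts. In B cells 14 of the 17 rose and none fell (31.5% and 36.3% of all), in T cells 9 rose and 1 fell (46.3% and 22.5%), in NK cells 1 rose and none fell (44.4% and 2.31%), and in HSPCs 15 fell and none rose (68.8% and 7.87%).

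The genes that make and mature rRNA gave few transcripts to compare. Of the 14 genes listed for transcription by RNA polymerase I, 13 were present and 1 transcript was tested, Taf1d-206 of a subunit of the promoter factor SL1, whose log2 difference in monocytes was 3.51. None of the 21 genes for 5S transcription by RNA polymerase III and none of the 25 rRNA processing proteins reached the test, with summed levels of 14.6 to 169 TPM and 30.6 to 377 TPM on average, both highest in monocytes. Among the 8 genes of the 5S RNP, the particle that 5S rRNA forms with its protein partners before it enters the large subunit, 2 transcripts of the ribosomal protein gene Rpl11 were tested, and the difference of Rpl11-210 in monocytes was 5.21. These 3 transcripts passed the filter through the monocyte libraries only, and 79.5% of all tested transcripts rose there, so no test is given for them.

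The small nucleolar RNAs that guide rRNA processing, with the RNA of RNase MRP, were highest in T cells. Their summed level over 10 listed genes was 14657 ± 2420 TPM in T cells, 10386 ± 1555 in NK cells, 4999 ± 775 in B cells, 3647 ± 364 in monocytes and 1678 ± 309 in HSPCs. After rescaling, HSPCs (8039 TPM) stood above B cells (6143 TPM) and monocytes (4275 TPM) and below T cells (16586 TPM) and NK cells (14575 TPM). Of the 8 tested transcripts, 7 rose in T cells (19.6% of all tested transcripts), 5 rose in NK cells (13%) and 7 fell in HSPCs (69.7%), whereas 1 rose and 4 fell in B cells (13.1% and 47.2%) and in monocytes (79.5% and 7.46%). The box C/D RNAs Snord14c, Snord14d and Snord14a rose in T cells by 3.33, 3.21 and 2.81 (limma adjusted p = 3.13e-05, 2.99e-06 and 0.000165), and Snord22 fell by 3.34 in HSPCs (limma adjusted p = 1.82e-06).

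The mitochondrial rRNAs, which are encoded in the mitochondrial genome and form the mitochondrial ribosome, were not members and were highest on monocytes. They summed to 10977 ± 599 TPM in monocytes, 1348 ± 1202 in B cells, 6390 ± 1078 in NK cells, 2133 ± 682 in HSPCs and 3127 ± 2415 in T cells. The B cell mean was 667 TPM without B replicate 1 and the T cell mean 1736 TPM without T replicate 2, and after rescaling HSPCs (10126 TPM) stood next to monocytes (12831 TPM). The small-subunit mt-Rnr1 fell by 2.58 in B cells and rose by 2.56 in monocytes (limma adjusted p = 0.000694 and 0.000354).

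Among tested transcripts of other types, those most like summed 18S over the 15 libraries were single transcripts of Lars2 (Pearson r of log2(TPM + 1) = 0.979), Nfkbia (0.964) and Junb (0.956). Those most like summed 5S were the snRNAs Gm24265 (0.979) and Gm24407 (0.962) and the lncRNA 2900060B14Rik (0.961). All points share the total of their library, and these correlations are a description over 5 cell types.

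In the PBMC total RNA libraries, which had 4686426 to 9055797 expected counts, the question was how the groups ct, WT and Y differed in rRNA. Of 354 genes annotated as rRNA, 150 had a count above 0 in some library. A single gene, CT010467.1, took 52.9% ± 2.46 of all counts in ct, 54.4% ± 2.85 in WT and 51.5% ± 0.564 in Y. It lies at chr17:39846353-39848827 (GRCm38, minus strand), where it overlaps Gm42418 on the other strand, AY036118 and the RefSeq position of Rn18s-rs5, and because no strand is stated for these libraries, their reads cannot be told apart. Rn18s-rs5 was not listed under that name, but RefSeq gives Gm42418 as a synonym of it. The WT minus ct log2 difference of Gm42418 was -0.16 ± 0.17 and did not pass the test. All 32 genes with the sequence of Rn5s were at 0 in all 9 libraries.

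Names here follow the annotation of these libraries. Among the 5S sets with counts, n-R5s106 with its 4 equal genes was the highest. It stood at 28.9, 24.9 and 34.0 CPM (counts scaled to library size and by the TMM factors of edgeR) in ct, 28.9, 46.2 and 49.3 CPM in WT and 33.8, 31.6 and 30.0 CPM in Y. The 5.8S gene n-R5-8s1, absent by name from the surface tables, was listed at 47.2, 52.6 and 48.7 CPM in ct, 47.5, 97.6 and 76.7 CPM in WT, and 51.2, 37.5 and 41.5 CPM in Y. WT replicates 2 and 3 lay above all other libraries for both, and WT replicate 1 lay within the range of ct and Y.

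None of the 48 rRNA sets that passed the filter of edgeR was called between any 2 groups, where 2.35% of 11635 genes were called for WT against ct, 0.696% for Y against ct and 1.25% for Y against WT (edgeR quasi-likelihood test, Benjamini-Hochberg adjustment). At an unadjusted p under 0.05 in edgeR the counts were 19, 0 and 18 sets, where 1368, 1001 and 1367 of all 11635 genes passed. DESeq2 called 0, 0 and 1 set, where it called 170, 64 and 95 of these genes. With no filter beyond a count above 0, edgeR called 15 of 126 sets in WT against ct, all higher, and 12 in Y against WT, all lower. Of the 29571 genes then tested, 484 and 366 were called. In WT against ct 46 of 48 sets had a positive log2 difference, with a median of 0.52 against 0.00 over all genes, and in Y against WT 46 were negative, with a median of -0.53. The lowest adjusted p-values were those of n-R5s194 in WT against ct (log2 difference 1.34 ± 0.40, edgeR adjusted p = 0.115) and of n-R5-8s1 in Y against WT (-0.78 ± 0.19, edgeR adjusted p = 0.0542). The highest library was WT replicate 2 for 26 sets and WT replicate 3 for 17. Without WT replicate 1, 14 of 52 sets were higher in WT than in ct and 13 lower in Y than in WT by the edgeR test, where 253 and 148 of all 11902 genes were called. Without WT replicate 2 the medians shrank to 0.31 and -0.33, and 7 and 9 of 48 sets had an unadjusted edgeR p under 0.05 (1244 and 1199 of 11955 genes). Without WT replicate 3 they were 0.39 and -0.42, with 11 and 12 of 49 sets (1219 and 1173 of 11963 genes).

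These 48 sets held 38 n-R5s genes or sets, the 5.8S gene and 9 others. After CT010467.1, the most abundant were n-R5-8s1, n-R5s106, n-R5s127, n-R5s161 and Gm24601. By transcript ID, n-R5s28, n-R5s33, n-R5s41, n-R5s65, n-R5s151, n-R5s162, n-R5s185, n-R5s204 and n-R5s210, and Gm23647 among the others, were also members on the surface. The further 5S names were n-R5s2, n-R5s13, n-R5s40, n-R5s46, n-R5s56, n-R5s58, n-R5s62, n-R5s64, n-R5s71, n-R5s77, n-R5s90, n-R5s109, n-R5s112, n-R5s115, n-R5s136, n-R5s155, n-R5s156, n-R5s166, n-R5s191, n-R5s193, n-R5s194, n-R5s195, n-R5s205, n-R5s209, n-R5s211 and n-R5s215. The others were Gm23647, Gm23806, Gm24573, Gm25675, Gm26197, Gm26381, Gm27959 and CT010467.1, whose difference between WT and ct was 0.14 ± 0.24 (edgeR adjusted p = 0.905).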

How the data were processed

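The authors isolated RNA read from the cell surface by AMOUR and, per the study's methods, trimmed reads with Trimmomatic 0.39, removed duplicates by barcode and estimated transcript abundance (TPM) with Kallisto 0.48.0. The deposited TPM values are scaled per transcript length and library; the murine transcript set and the depth are not given in the sources used here. The PBMC files hold expected counts that the authors made with RSEM, as named in the submitters' processing notes (mm10 and hg38 listed); STAR 2.7.10b with up to 20 loci per read is in the study's methods, whose use for PBMCs is not stated.

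Members, gene lists and tests were chosen with earlier results of these data known. Sets of transcripts with equal values were named Rn5s or by their lowest n-R5s or Gm name, and every set with a mean above 50 TPM in a cell type was named. Surface TPM were tested as log2(TPM + 1) with limma 3.58.1 over 1032 transcripts above 50 TPM in at least 1 library, equal-valued transcripts counted once, contrasting each cell type with the average of the other 4, and in all 10 pairs, with Benjamini-Hochberg adjustment and a call at an adjusted p below 0.05. A fold on this scale understates the change of low transcripts. Sums and ratios of groups carry no test. PBMC expected counts were rounded and tested with edgeR 4.0.16 (quasi-likelihood, TMM) over 11635 genes, and with DESeq2 1.42.0 as an alternative, with the 354 genes that GENCODE M21 gives as rRNA. Both tests were tested on simulated data. Alternatives were the pseudocount, the filter, the scaling, all transcripts counted, leaving out the monocyte libraries or each replicate, and the replicate number as a block. The alternatives for pairs of cell types and the rescaled sums of gene lists were added after seeing the data. Deviations from the group means correlated above 0.1 in all 3 same-numbered T and NK pairs (r = 0.55, 0.27 and 0.53), a pairing that comes from the data and not from the labels, and in 4 of all 30 surface pairs. For transcripts other than rRNA, the 3 with the highest Pearson r and, per list, up to 4 called genes with the largest change were named. GRCm38 positions came from GENCODE M21, matched by transcript ID or, for equal-valued array copies, by symbol, and 5S copies were compared base by base with Rn5s where lengths were equal; the sequences themselves are not reported here. No columns of the authors' own comparisons were used.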

Additional observations from a re-analysis of the deposited data

How the results depend on the processing

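The surface counts of rRNA sets called, given in the report for the 33 tested sets, moved by over 1.5 times as follows. Shares in brackets are those of all transcripts called the same way in the same setting. With a pseudocount of 10, 18 sets were lower in T cells (64.9%) and 12 in B cells (60.1%), and with 0.1, 6 were lower in NK cells (12.9%). With a filter above 10 TPM, of 55 sets tested among 6119 transcripts, 13 were lower in B cells (50.8%), 14 higher in T cells (5.59%), 3 higher in NK cells (4.53%), 51 lower in HSPCs (70.3%), and 45 higher (86.7%) and 2 lower (4.17%) in monocytes. With no filter, all but 2 of the 114 sets were tested among 100900 transcripts, and 10 sets were lower in B cells (9.23%), 11 higher in T cells (1.55%), 2 higher in NK cells (2.19%), 1 higher (1.26%) and 47 lower (12.8%) in HSPCs and 50 higher in monocytes (36.8%). Rescaled without the 3 miRNA transcripts, of 36 sets, 13 were lower in B cells (60%), 2 higher in T cells (12.5%), 0 higher in NK cells (9.74%), 3 higher in HSPCs (38.1%) and 2 lower in monocytes (9.82%). Under quantile normalization 6 were lower in T cells (49.6%), 2 higher in NK cells (16%) and 5 lower in monocytes (25.1%). Without the monocyte libraries, of 17 sets, 15 were lower in HSPCs (68.8%), 1 in T cells (22.5%), 0 in B cells (36.3%) and 0 in NK cells (2.31%). Counting every transcript, 71 of them rRNA, gave 47 higher in B cells (19.7%), 41 higher in T cells (26.1%), 69 lower in HSPCs (72.2%) and 32 lower in monocytes (10.6%), because equal copies, 32 of them of Rn5s, then count singly. Where more or fewer sets were tested, a count can move without its share. Leaving out 1 library gave 0 to 2 higher and 6 to 13 lower in NK cells; it was 0 higher without NK replicate 2 (9.81%) or 3 (10.3%), 2 higher without B replicate 1 (15.5%) or HSPC replicate 2 (12.6%), and 6 lower without NK replicate 2 (21.1%). The other contrasts' counts stayed within 1.5 times without any single library.

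Rescaling turned these log2 differences: Rn18s-rs5 in B cells (-0.43) and HSPCs (0.90), n-R5s106 in T cells (-0.00868) and monocytes (-0.52), n-R5s136 in T cells (-0.071), n-R5s102 (0.28), Gm55073 (1.09), mt-Rnr2-201 (1.16), Rpl11-210 (0.21) and Taf1d-206 (1.498) in HSPCs, T minus HSPC of Rn18s-rs5 (-1.99) and HSPC minus monocyte of Rn5s (0.50). The rescaled levels were 133757, 203336, 278419 and 265017 TPM for 18S in B cells, NK cells, HSPCs and monocytes, 477773, 326056, 193901 and 147468 TPM for 5S in T cells, NK cells, HSPCs and monocytes, and 561, 460 and 5786 TPM for the other rRNA in NK cells, HSPCs and monocytes. Quantile normalization gives the top ranks of all libraries equal values and thereby removes differences of the most abundant transcripts: 4 pairs of cell types differed in Rn18s-rs5 and 0 in Rn5s. It turned Rn18s-rs5 in T cells (0.44) and in B minus T (-0.44), Rn5s in HSPCs (0.0016) and in HSPC minus monocyte (0.024), n-R5s106 in T cells (-0.18) and NK cells (-0.63), n-R5s136 in T cells (-0.57), n-R5s102 in NK cells (-0.61), HSPCs (0.45) and monocytes (-0.11), n-R5s115 (-0.58), n-R5s2 (-0.0199), Gm55073 (-1.860), n-R5s194 (-0.85) and Snord14a-201 (-2.18) in monocytes, and Taf1d-206 in HSPCs (0.98). A pseudocount of 10 turned Gm55748 (-0.56) and n-R5s151 (-0.31) in B cells and n-R5s195 in T cells (-0.35). Without monocytes Gm55098 turned in B cells (0.77) and NK cells (0.40). Apart from the scaling and the monocyte libraries, the cause of these moves was not tested.

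For PBMC rRNA, no filter gave 15 calls in WT against ct and 12 in Y against WT of 126 sets, where 484 and 366 of 29571 genes were called. DESeq2 gave 1 in Y against WT, where 95 of 11635 genes were called. Leaving out 1 library gave 0 to 14 calls in WT against ct and 0 to 13 in Y against WT. The 14 and 13 of 52 sets came without WT replicate 1, where 253 and 148 of 11902 genes were called. Without ct replicate 3 it was 1 each of 52 sets, where 214 and 170 of 11900 genes were called. Apart from T and NK cells, whose 3 same-numbered pairs correlated, the samples share only a number, and 0 of 9 PBMC pairs had deviations correlated above 0.1. A replicate block kept the T minus NK calls of Rn18s-rs5 and Rn5s (limma adjusted p = 0.000429 and 0.0109) and moved no surface count by over 1.5 times. For PBMCs this block gave 2 calls of 48 sets in Y against WT. Of all 11635 genes, fewer were then called than the 1.25% called without the block. Of the values for single transcripts under all alternatives, 4538 kept direction and side of the threshold, 99 passed it only under the alternative, 117 no longer passed, and 33 reversed. Unknown surface depth and 3 libraries a group limit the precision.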

Other observations

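AY036118-201, a transcript of the chromosome 17 locus that CT010467.1 overlaps, was listed on the surface at 214, 278 and 443 TPM in monocytes and at no more than 0.219 TPM in any other library. In all, 149488 transcripts were listed for monocytes and 102168 for each of the other cell types. The part of this difference in the AY036118-201 values was not tested, and it cannot be told apart from cell type. The monocyte table also listed 200 rRNA transcripts that the other 4 tables do not hold, the highest at 13.5 TPM in a single library.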
